A study of Mus musculus with 28 samples.

Results

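The BCL2 family decides whether a cell keeps the outer membrane of its mitochondria intact. Bcl2, Bcl2l1 (which encodes BCL-XL) and Mcl1 encode the guardians, Bak1 encodes an effector that opens the membrane and lets cytochrome c out, and Bid, Bcl2l11 (BIM), Bmf, Bik and Bad encode BH3-only proteins, which sense damage or lost growth signals and either engage the effectors or occupy the guardians. In the intestine the family sets how readily crypt cells die, and in BRAF-driven cells BIM is known as a target of the ERK pathway, since phosphorylation by ERK marks it for degradation. That control acts on the protein, whereas the data here are RNA.

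The 10 genes were listed by name as members of this family, and the list has no threshold on a measured value. Of these, 9 were found among the 13519 genes counted, and Bcl2l15 was not analysed here. They were measured by bulk RNA sequencing of colon organoids from C57BL/6N mice. AC organoids were VillinCreERT2::APCflox/flox, PAC organoids carried Trp53LSL-R172H/+ as well, BAC organoids carried BraffloxV600E/+ as well, and BPAC organoids carried both of these alleles. The Villin promoter confines the tamoxifen-activated Cre to intestinal epithelium. Each culture was given EtOH as vehicle or 3.5 µM 4-HT for 24 hours, and RNA was taken 3 days after that. The EtOH controls therefore hold the same alleles without induced recombination, and APCflox/flox is common to all 28 samples, so that the effect of Apc loss cannot be told apart from that of 4-HT itself. There was 1 donor mouse for AC and there were 2 for each other genotype, and each donor gave 2 cultures, called duplicates 1 and 2, which gives 2 samples per treatment for AC and 4 for PAC, BAC and BPAC. The paper describes organoids taken from 2 distinct passages, and the labels do not say whether the duplicates are these passages. The ages of the mice are not given in the sources used here.

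Totals ran from 20577276 to 40068718 counts per sample. After 4-HT, the duplicate 1 totals were 26594188 to 30306835 in AC and PAC and 37438687 to 40068718 in BAC and BPAC. Both PAC samples of duplicate 1 given 4-HT held Xist (22.0 and 25.2 CPM) together with Y-linked transcripts (53.5 and 55.0 CPM), and they were the closest pair of all samples, with a root mean square difference of 0.204 log2 units against 0.346 for the next pair. Their EtOH partners held mainly one or the other (Xist 0.251 and Y-linked 134 CPM in Col290, Xist 59.9 CPM and no Y-linked count in Col313), so that each of the 2 4-HT samples may not hold RNA of its labelled donor alone, which was not tested. They count as 2 PAC cultures wherever 14 cultures are counted. Called members whose call changes without them are given with and without them. As a check of the alleles, Trp53 with EtOH was 51.4 to 66.05 CPM in PAC and BPAC and 97.9 to 121.6 CPM in AC and BAC. Apc was higher with 4-HT (51.4 to 73.8 CPM) than with EtOH (27.9 to 49.7 CPM), without overlap, and Braf overlapped (20.3 to 27.3 and 20.2 to 27.9 CPM). Counts over a whole gene do not show a deleted exon or a point mutation, so that these values check neither allele. The 6 epithelial markers summed to 11016 to 19881 CPM, whereas of the 4 fibroblast markers only Vim was counted (2.30 to 6.33 CPM), and the 2 immune markers counted summed to 6.13 CPM at most.

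On GRCm38 the counted members lie on 7 chromosomes, and all are annotated as protein coding. Bcl2 (ENSMUSG00000057329, 106538178 to 106714274, minus strand) is on chromosome 1. Chromosome 2 holds Bmf (ENSMUSG00000040093, 118528757 to 118549687, minus strand), Bcl2l11 (ENSMUSG00000027381, 128126038 to 128162547, plus strand) and Bcl2l1 (ENSMUSG00000007659, 152780668 to 152831728, minus strand). Mcl1 (ENSMUSG00000038612, 95658788 to 95663176, plus strand) is on chromosome 3 and Bid (ENSMUSG00000004446, 120891930 to 120916853, minus strand) on chromosome 6. Bik (ENSMUSG00000016758, 83526862 to 83544634, plus strand) is on chromosome 15, Bak1 (ENSMUSG00000057789, 27019810 to 27029009, minus strand) on chromosome 17 and Bad (ENSMUSG00000024959, 6941861 to 6951899, plus strand) on chromosome 19. Exons of 4 members overlap those of a gene on the opposite strand: Bid with Bcl2l13 over 17.7% of its exonic length, Bak1 with Ggnbp1 over 18.2%, Bad with Gpr137 over 20.5%, and Bcl2 with D630008O14Rik over 6.09%. The strandedness of the counting is not given in the sources used here, so that reads from these stretches may not be separable.

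RefSeq promoters, 250 bases before to 50 bases after a transcript start, were available for 8 of the 9 counted members, 14 promoters in all, and Bik had no entry. They were searched on both strands for 5 motifs of factors linked to these organoids' pathways or to the members. TCF/LEF (CTTTGA, in 16% of all 32851 promoters), AP-1 (TGANTCA, in 7.81%) and the E-box (CACGTG, in 7.15%) had no match in the 14. The ETS motif (CCGGAAG, in 8.86% of all promoters) matched in 3 of the 14, namely 1 promoter each of Bcl2l11, Bcl2l1 and Mcl1 (the last not shown). The FOXO motif (GTAAACA, in 3.65%) matched in 1, the same promoter of Bcl2l11. The promoters below are those of the members whose RNA is followed most closely in the results, from GRCm38.p6, 5′ to 3′ on the gene's strand. Capitals mark a motif match, which is a description of the letters and not a binding site.
Bcl2l11, chr2:128125788-128126087, plus strand, the first of its 2 promoters, with 1 FOXO match and 1 ETS match on the reverse strand (the second, not shown, has no match): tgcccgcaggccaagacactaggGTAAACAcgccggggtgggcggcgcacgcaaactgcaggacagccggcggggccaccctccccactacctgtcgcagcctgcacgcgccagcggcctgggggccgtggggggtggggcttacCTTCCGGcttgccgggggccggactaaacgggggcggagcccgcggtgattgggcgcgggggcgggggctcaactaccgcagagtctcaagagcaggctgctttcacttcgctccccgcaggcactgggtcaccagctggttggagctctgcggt
Bcl2l1, chr2:152831679-152831978, minus strand, the third of its 3 promoters, with 1 ETS match: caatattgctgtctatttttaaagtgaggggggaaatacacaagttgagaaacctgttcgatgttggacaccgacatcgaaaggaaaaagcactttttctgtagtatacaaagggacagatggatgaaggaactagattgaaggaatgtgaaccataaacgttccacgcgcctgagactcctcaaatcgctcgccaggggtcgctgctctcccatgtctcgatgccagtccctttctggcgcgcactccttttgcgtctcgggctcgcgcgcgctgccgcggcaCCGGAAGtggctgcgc
Bid, chr6:120916775-120917074, minus strand, with no match: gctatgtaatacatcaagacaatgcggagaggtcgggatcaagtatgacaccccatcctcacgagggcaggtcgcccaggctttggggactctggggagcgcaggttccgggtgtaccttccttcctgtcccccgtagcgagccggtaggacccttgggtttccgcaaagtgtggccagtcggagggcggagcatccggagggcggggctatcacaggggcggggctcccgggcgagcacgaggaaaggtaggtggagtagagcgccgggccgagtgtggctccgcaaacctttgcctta
Bak1, chr17:27028578-27028877, minus strand, with no match: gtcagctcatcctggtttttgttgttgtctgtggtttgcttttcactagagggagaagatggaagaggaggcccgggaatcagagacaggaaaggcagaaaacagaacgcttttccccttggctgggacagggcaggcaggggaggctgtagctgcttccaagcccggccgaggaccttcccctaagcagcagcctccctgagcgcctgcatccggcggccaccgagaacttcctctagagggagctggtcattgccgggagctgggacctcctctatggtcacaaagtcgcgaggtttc

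The first question was which members these organoids expressed. Mcl1 had the highest level per length, and the BH3-only gene Bmf the lowest. With EtOH, Mcl1 stood at 109 ± 16.4 CPM per kilobase of exon (SD, n = 14), Bcl2l1 at 23.7 ± 2.35 and Bad at 17.3 ± 2.48. Among the guardians, Bcl2 was by far the rarest, at 1.86 ± 0.705 CPM per kilobase. Bak1 (6.70 ± 1.24) and Bid (6.46 ± 1.03) followed Bad, and their ranges overlapped. Bcl2, Bcl2l11 (1.85 ± 0.377) and Bik (1.54 ± 0.493) lay together, with overlapping ranges, and Bmf was at 0.611 ± 0.176. The sample ranges of Mcl1 with EtOH (81.0 to 134) lay wholly above those of Bcl2l1 (18.3 to 26.6), whereas Bcl2l1 and Bad (13.2 to 20.9) overlapped. After 4-HT, Bid moved above Bak1 without overlap (7.31 to 11.5 against 3.36 to 5.63 CPM per kilobase). With the longest transcript as the length, the EtOH means of Bid (9.50) and Bak1 (6.76) changed places, so that their order with EtOH depends on the gene model.

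**Figure D1:**
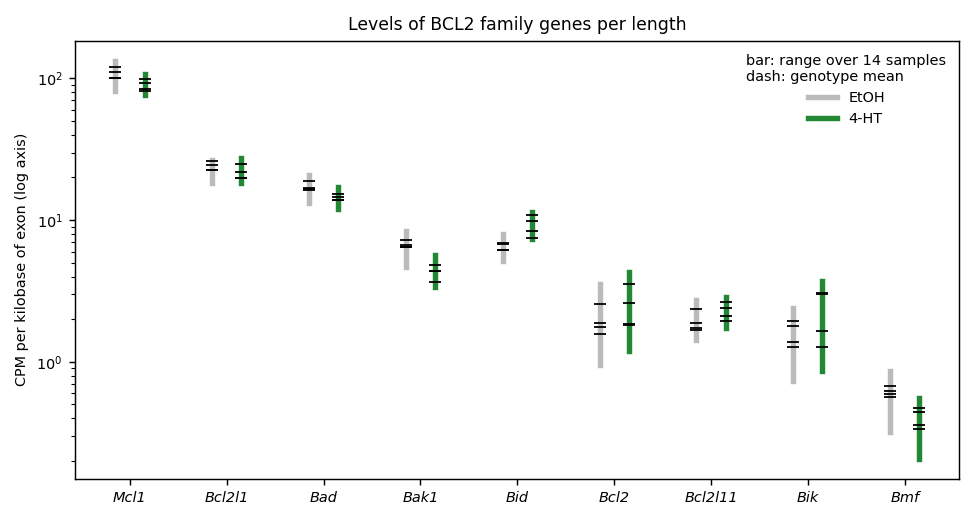
Levels of the 9 counted BCL2 family genes in CPM per kilobase of exon, on a log axis, ordered by the EtOH mean. Bars give the range over 14 samples with EtOH (grey) or 4-HT (green), and dashes give the 4 genotype means. Mcl1 lies at 76.1 to 134 in all samples and Bmf at 0.207 to 0.855.

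The second question was how each member differed between 4-HT and EtOH within a genotype. A gene was called when the adjusted p over all 13519 genes was under 0.01 in edgeR's quasi-likelihood test. Bid rose and Bak1 fell in BAC and in BPAC, and Bcl2l1 fell in BPAC. No member was called in AC or PAC. Over all genes, 3% were called higher and 4.25% lower for AC, 11.2% and 12.2% for PAC, 20.3% and 21.5% for BAC, and 22% and 23% for BPAC. Against those shares, 1 member of 9 was called higher and 1 lower in BAC, and 1 higher and 2 lower in BPAC, close to the proportion over all genes. The median log2 change of the 9 members for AC, PAC, BAC and BPAC was -0.08, -0.04, -0.18 and -0.27, beside 0.01, -0.03, -0.04 and -0.04 over all genes.

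By the labels, each EtOH sample has a 4-HT partner from the same donor and duplicate. With the culture as a replicate block, 16.4% of all genes were called for AC, and for PAC, BAC and BPAC 34.9%, 51.9% and 54.4%. The members called were 0, 5, 5 and 6 in that order. The 5 of PAC were Bcl2, Bcl2l11 and Bik (higher) and Mcl1 and Bak1 (lower). Without the PAC cultures of duplicate 1, no member was called in PAC with the block, and the smallest adjusted p was that of Bik (edgeR, 0.0517). In BAC the block added Mcl1, Bmf and Bad as lower, and in BPAC the same 3 genes.

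Differentiated colonocyte markers moved with 4-HT as well. The 6 genes summed to 13508 to 22639 CPM with EtOH and to 2764 to 9699 CPM with 4-HT, while the 4 crypt base markers summed to 216 to 343 CPM with EtOH and 546 to 711 CPM with 4-HT. The 4 markers of dividing cells summed to 356 to 512 CPM with EtOH and 543 to 794 CPM with 4-HT. In bulk RNA, fewer cells of a type and less RNA per cell cannot be told apart, and the part of this shift in the members' changes was not tested.

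**Figure D2:**
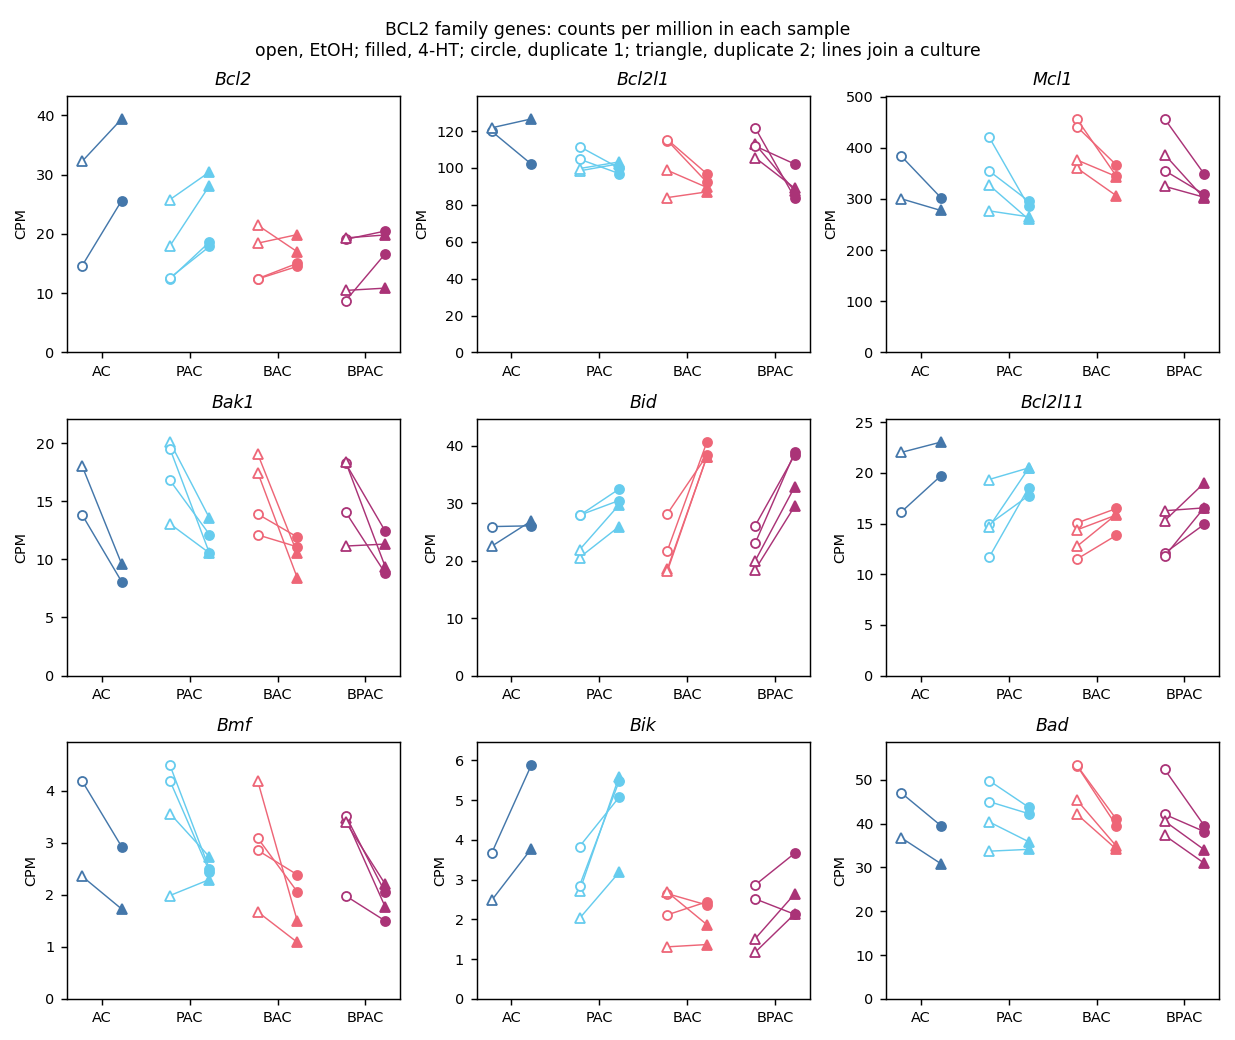
CPM of the 9 counted members in every sample, on linear axes from 0. Open symbols are EtOH and filled symbols 4-HT, circles duplicate 1 and triangles duplicate 2, and a line joins the samples of 1 culture. In the Bid panel the filled symbols of BAC stand at 38.1 to 40.7, above all 4 open ones.

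Among the guardians, Mcl1, which encodes a short-lived protein that many epithelial cells depend on, was lower after 4-HT in 14 of 14 cultures. In AC the levels were 384 and 300 CPM with EtOH and 303 and 278 with 4-HT. In PAC they were 355, 421, 277 and 327 CPM with EtOH and 296, 286, 265 and 260 with 4-HT. The PAC groups overlapped only between the lowest EtOH value and the 2 highest 4-HT values. In BAC, Mcl1 was at 441, 456, 376 and 360 CPM with EtOH and at 366, 344, 344 and 306 with 4-HT. In BPAC it was at 456, 355, 387 and 325 CPM with EtOH and at 349, 309, 301 and 303 with 4-HT. The log2 changes were -0.24 (SE 0.17), -0.32 (0.12), -0.26 (0.12) and -0.27 (0.12) in AC, PAC, BAC and BPAC, with adjusted p of 0.355, 0.0365, 0.0593 and 0.052 in edgeR. With the block the adjusted p was 0.143, 0.00539, 0.00981 and 0.00902. Scaled by library size alone, these changes were smaller, since that scaling moved the median of all genes up by 0.167 to 0.224 log2 units. The direction of the Mcl1 fall held in all 37 alternatives of each genotype.

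Bcl2l1, whose product is BCL-XL, fell in BPAC. It was at 122, 112, 113 and 106 CPM with EtOH and at 83.8, 102, 87.6 and 89.0 with 4-HT, with no overlap. The fall of 4 of 4 cultures came to -0.32 log2 (SE 0.09, adjusted p = 0.00394 in edgeR, 0.00199 with the block). The call was lost without duplicate 1 of Col287 (-0.24, adjusted p = 0.0545), without duplicate 2 of Col287 (-0.30, 0.0183), without duplicate 2 of Col312 (-0.34, 0.0102), without both cultures of Col287 (-0.19, 0.246) and with library size alone (-0.10, 0.347). It was lost as well in duplicate 2 alone (-0.31, adjusted p = 0.0414) and with each genotype fitted alone (-0.29, 0.026). In BAC the levels were 115, 115, 98.7 and 83.9 CPM with EtOH and 96.8, 92.2, 89.4 and 87.0 with 4-HT. These overlapped, and the change of -0.18 (SE 0.09, adjusted p = 0.0984) was not called. In AC (120 and 122 CPM to 102 and 127) and PAC (105, 112, 98.4 and 99.7 CPM to 97.0, 99.9, 102 and 103) the cultures moved both ways. The fitted changes there were -0.08 and -0.04, and both took the opposite sign with library size alone. The change of BPAC was not called different from that of PAC (-0.28, 95% interval -0.54 to -0.02, adjusted p = 0.183).

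Bcl2, the founding member of the family, varied more between cultures than most members. With EtOH it was at 14.6 and 32.2 CPM in AC, and with 4-HT at 25.6 and 39.4. In PAC the values were 12.4, 12.6, 25.8 and 17.98 CPM with EtOH and 18.6, 17.9, 30.5 and 28.2 with 4-HT. Every AC and PAC culture was higher after 4-HT, but the groups overlapped. In BAC they were 12.4, 12.5, 21.5 and 18.4 CPM with EtOH and 14.5, 15.04, 17.0 and 19.9 with 4-HT. In BPAC they were 8.72, 19.1, 10.5 and 19.3 CPM with EtOH and 16.6, 20.5, 10.8 and 19.8 with 4-HT. Of the 8 BAC and BPAC cultures, 7 were higher after 4-HT, most of them by little. The changes were 0.47 (SE 0.42), 0.47 (0.30), 0.04 (0.30) and 0.23 (0.30) log2 in AC, PAC, BAC and BPAC. In edgeR only the PAC value was called, and only with the block (0.49, adjusted p = 0.00819, against 0.226 without it). The duplicates differed as much as the treatments, with duplicate 2 above duplicate 1 by 0.62 log2 with EtOH and by 0.28 with 4-HT on average.

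Bak1, which encodes the effector, was lower after 4-HT in 13 of 14 cultures. In AC it went from 13.8 and 18.04 CPM to 8.08 and 9.60, and in PAC from 16.8, 19.5, 20.1 and 13.1 CPM to 12.1, 10.5, 13.5 and 10.5. The AC groups did not overlap, and the PAC groups overlapped by 1 sample. In BAC the EtOH values were 12.1, 13.9, 17.5 and 19.1 CPM and the 4-HT values 11.1, 11.9, 8.40 and 10.5. In BPAC the EtOH values were 14.1, 18.3, 11.1 and 18.4 CPM and the 4-HT values 8.82, 12.4, 11.3 and 9.38. BAC did not overlap between treatments, and BPAC did. The log2 change by edgeR was -0.85 for AC (SE 0.25, adjusted p = 0.0225) and -0.57 for PAC (0.18, 0.0141), short of the threshold. It was -0.57 for BAC (0.18, 0.0086) and -0.56 for BPAC (0.18, 0.00951), just past it, so that the PAC, BAC and BPAC values were of nearly the same size. Both calls were near the threshold and were lost with limma-voom (adjusted p = 0.013 in each), with library size alone (0.0541 and 0.0905) and without both PAC cultures of duplicate 1 (0.0143 and 0.0157). By DESeq2, Bak1 was also called in AC (adjusted p = 0.00886) and PAC (0.00694). Leaving out any of 5 single cultures ended the BAC call and any of 10 ended the BPAC call. The BAC fall came mostly from duplicate 2, at -0.95 (SE 0.28) against -0.16 (0.19) in duplicate 1. The BPAC fall differed by donor, at -0.32 without Col312 (adjusted p = 0.288 in edgeR) and -0.75 without Col287 (0.0131). Ggnbp1, whose exons overlap those of Bak1, was at 1.39 CPM or less in all samples.

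Bid encodes the protein that caspase-8 cleaves to carry a death receptor signal to the mitochondria. It was higher after 4-HT in 14 of 14 cultures, and by more where the Braf allele was present. In AC it was at 26.0 and 22.5 CPM with EtOH and at 26.1 and 26.9 with 4-HT. In PAC it was at 27.9, 27.9, 20.6 and 21.9 CPM with EtOH and at 30.5, 32.5, 26.0 and 29.7 with 4-HT. These shifts were small, and the PAC groups overlapped. In BAC the values were 28.2, 21.8, 18.2 and 18.5 CPM with EtOH and 38.3, 40.7, 38.2 and 38.1 with 4-HT. In BPAC they were 26.1, 23.1, 18.5 and 19.996 CPM with EtOH and 38.4, 38.9, 29.5 and 32.9 with 4-HT. Neither BAC nor BPAC overlapped between treatments. The log2 change was 0.13 (SE 0.19, adjusted p = 0.708) in AC and 0.27 (0.14, 0.12) in PAC. It was 0.84 (0.14, 1.43e-05) in BAC, a fold of 1.79, and 0.67 (0.14, 0.000172) in BPAC, a fold of 1.60, in edgeR. With library size alone the PAC change was 0.49 and called (adjusted p = 0.0072). The BAC call held in all 37 alternatives and the BPAC call in 36, the exception being the fit without donor Col312 (0.61, adjusted p = 0.0189). The overlapping gene Bcl2l13 changed by 0.16 (SE 0.10) in BAC and 0.18 (0.10) in BPAC, neither of them called.

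**Figure D3:**
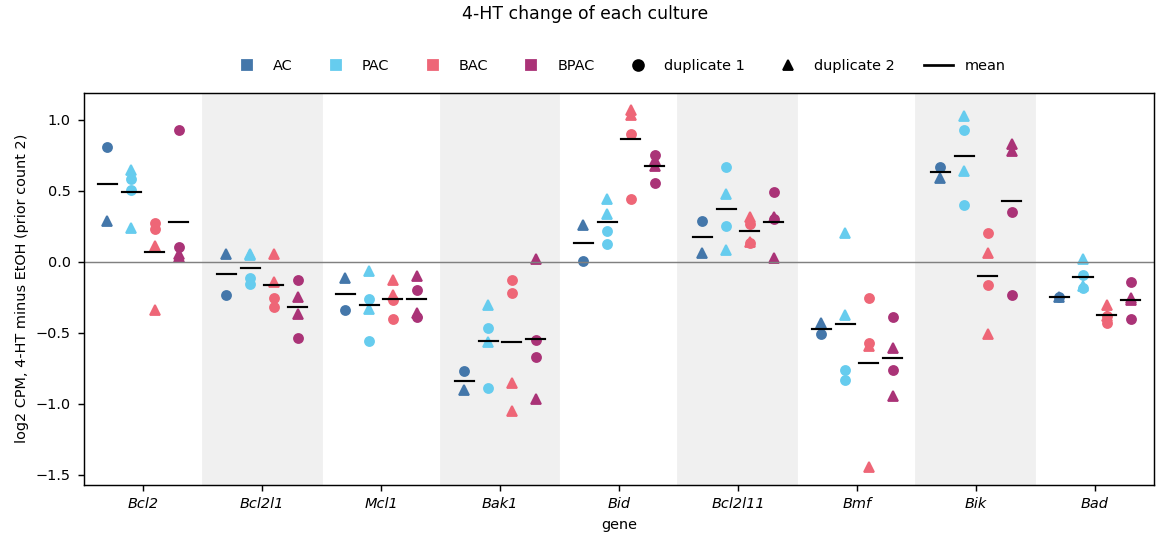
Log2 change of each member from EtOH to 4-HT in each of 14 cultures (log2 CPM with a prior count of 2). Colours give the genotype, circles and triangles duplicates 1 and 2, and black bars the genotype means. All 8 Bid values of BAC and BPAC lie at 0.44 to 1.07, and the 6 of AC and PAC at 0.01 to 0.44.

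Bcl2l11, the gene of BIM, was slightly higher after 4-HT in every culture. In AC it went from 16.1 and 22.0 CPM to 19.7 and 23.0, and in PAC from 14.9, 11.7, 14.7 and 19.4 CPM to 17.8, 18.5, 20.5 and 20.5. In BAC it went from 11.5, 15.1, 14.4 and 12.8 CPM to 13.9, 16.5, 15.9 and 15.9, and in BPAC from 12.1, 11.8, 16.3 and 15.3 CPM to 14.9, 16.6, 16.6 and 19.0. The groups overlapped in all 4 genotypes, although 14 of 14 cultures moved upward, by 0.02 to 0.66 log2. The fitted changes were 0.16 (SE 0.20), 0.35 (0.14), 0.21 (0.14) and 0.27 (0.14) in AC, PAC, BAC and BPAC, and none was called in the unpaired test. With the block, PAC was called (0.37, adjusted p = 0.0075 in edgeR). With library size alone, which raised the median of all genes, Bcl2l11 was called in PAC (0.57, 0.00225) and BPAC (0.49, 0.00465). The 3 genes whose log2 CPM followed Bcl2l11 most closely over the 28 samples were Cdk6 (Pearson r = 0.816), Adam11 (0.813) and Rtn4rl1 (0.805). These points share treatment, duplicate and donor, and the values are a description.

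Bmf, whose product is held at the cytoskeleton until it is released, was the rarest member per kilobase, with 31 to 117 counts per sample, and was lower after 4-HT in 13 of 14 cultures. In AC it went from 4.19 and 2.35 CPM to 2.92 and 1.73, and in PAC from 4.19, 4.49, 3.56 and 1.99 CPM to 2.45, 2.49, 2.73 and 2.29. In BAC it went from 3.09, 2.85, 1.67 and 4.18 CPM to 2.06, 2.38, 1.09 and 1.49, and in BPAC from 1.98, 3.52, 3.47 and 3.40 CPM to 1.498, 2.05, 1.77 and 2.21. The groups overlapped in every genotype, and within BPAC only the EtOH sample of Col287 duplicate 1 fell into the 4-HT range. The changes were -0.49 (SE 0.41), -0.52 (0.29), -0.73 (0.30) and -0.72 (0.29) in AC, PAC, BAC and BPAC. The last 2 were called only with the block (adjusted p = 0.00859 and 0.00933 in edgeR, against 0.0396 and 0.0389). Without duplicate 2 of Col286, the culture with the largest Bmf fall, the unpaired BAC change was -0.45.

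Bik, whose BH3-only product sits mainly at the endoplasmic reticulum, was also rare, with 29 to 187 counts per sample. It was higher after 4-HT in all 6 AC and PAC cultures, but in only 5 of 8 BAC and BPAC cultures. In AC it went from 3.67 and 2.48 CPM to 5.88 and 3.78, and in PAC from 3.83, 2.85, 2.71 and 2.02 CPM to 5.07, 5.47, 5.59 and 3.18. In BAC it went from 2.11, 2.65, 1.31 and 2.69 CPM to 2.44, 2.36, 1.37 and 1.87, and in BPAC from 2.52, 2.87, 1.17 and 1.51 CPM to 2.13, 3.66, 2.14 and 2.64. AC did not overlap between treatments, and the other genotypes did. The changes were 0.65 (SE 0.41), 0.76 (0.29), -0.11 (0.30) and 0.40 (0.30) in AC, PAC, BAC and BPAC. PAC was not called in the unpaired test (adjusted p = 0.0439 in edgeR), and was called with the block (0.76, 0.0041), with the duplicate number as a covariate (0.77, 0.00731) and with library size alone (0.98, 0.0094).

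Bad, whose product is sequestered by 14-3-3 proteins while growth factor signalling is on, was lower after 4-HT in 13 of 14 cultures. In AC it went from 47.0 and 36.8 CPM to 39.6 and 30.9, and in PAC from 45.1, 49.9, 33.7 and 40.4 CPM to 42.3, 43.8, 34.1 and 35.9. In BAC it went from 53.4, 53.3, 42.2 and 45.4 CPM to 41.0, 39.5, 34.2 and 34.9, and in BPAC from 52.4, 42.1, 37.3 and 40.6 CPM to 39.6, 38.2, 31.0 and 34.1. The BAC groups did not overlap and the others did. The changes were -0.25 (SE 0.19), -0.11 (0.13), -0.38 (0.13) and -0.27 (0.13) in AC, PAC, BAC and BPAC, and the PAC value took the opposite sign with library size alone. With the block, BAC (-0.37, adjusted p = 7.74e-05) and BPAC (-0.27, 0.00148) were called in edgeR. Gpr137, which shares exonic sequence with Bad on the opposite strand, fell by 0.67 and 0.85 log2 in the same genotypes (adjusted p = 1.12e-06 and 3.03e-08), and the part of shared reads was not tested.

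The third question was whether the 4-HT change differed with the Braf allele. The mean change of BAC and BPAC was compared with that of AC and PAC, and 6.61% of all genes were called. None of the 9 members was called, and 1 had an unadjusted p under 0.05. Bid and Bik had the largest differences in size. That of Bik was -0.56 log2, and that of Bid 0.56 log2 (SE 0.15, 95% interval 0.25 to 0.87, adjusted p = 0.0148 in edgeR). With the culture as a block, under which 14% of all genes were called, Bid was the only member called (0.56, SE 0.11, adjusted p = 0.00131). It was also called by DESeq2 (0.57, 0.00337) and after summing counts by donor (0.62, 0.00419), but it missed the threshold by limma-voom (0.57, 0.0101) and with the donor as the block (0.56). In all it was past the threshold in 7 of 36 alternatives. Without both PAC cultures of duplicate 1, the blocked difference was 0.51 (adjusted p = 0.00639) and the unblocked one 0.50 (0.0432). Within duplicate 1 it was 0.57 (adjusted p = 0.0197) and within duplicate 2 it was 0.55 (0.0803). With all samples thinned to the smallest total it was 0.56 (0.02). Without duplicate 1 of Col291, the unblocked difference was called (0.64, adjusted p = 0.00535). Split by the Trp53 allele, the difference was 0.71 (SE 0.23) between BAC and AC and 0.40 (0.19) between BPAC and PAC, and neither was called (adjusted p = 0.16 and 0.203, with the block 0.019 and 0.0492). Bcl2l13 had a difference of 0.08 (SE 0.11, adjusted p = 0.698).

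Averaged by donor, the Bid change was 0.62 to 0.97 log2 in the 4 BAC and BPAC donors and 0.13 to 0.33 in the 3 AC and PAC donors. The exact permutation test over donors (two-sided, 35 splits) gave p = 0.0571 for the difference of 0.54, the smallest p this design allows, so that it cannot reach 0.05. Donors did not overlap for 4 of the 9 members (Bid, Bik, Bmf and Bcl2l1), while they did not overlap for 35.3% of all genes. For Bik the donor means were -0.33 to 0.56 with the allele and 0.63 to 0.78 without it (difference -0.54, exact permutation p = 0.0571), and the fitted difference was -0.56 (SE 0.33, 95% interval -1.23 to 0.12, adjusted p = 0.275 in edgeR). This interval runs from below -1 to above 0. The genes whose levels followed Bid most closely over the 28 samples were Yrdc (Pearson r = 0.938), Srsf6 (0.933) and Spryd4 (0.928), given as a description.

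For Bcl2l11 the difference was -0.01 (95% interval -0.34 to 0.31, adjusted p = 0.965 in edgeR), and its sign depended on the setting, with 26 of 36 alternatives on the same side. For Mcl1 it was 0.01 (-0.26 to 0.28), with 23 of 36 on the same side. The remaining members had differences of -0.34 (Bcl2, -1.02 to 0.35), -0.19 (Bcl2l1, -0.39 to 0.02), -0.22 (Bmf, -0.90 to 0.45), -0.14 (Bad, -0.45 to 0.16) and 0.14 (Bak1, -0.27 to 0.55). The Bmf and Bak1 values changed sign in 1 alternative each. The median over the 9 members was -0.14, beside -0.01 over all genes. Intervals of this width leave room for differences of about the size seen for Bid in Bcl2, Bmf and Bik, and nearly so in Bak1.

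**Figure D4:**
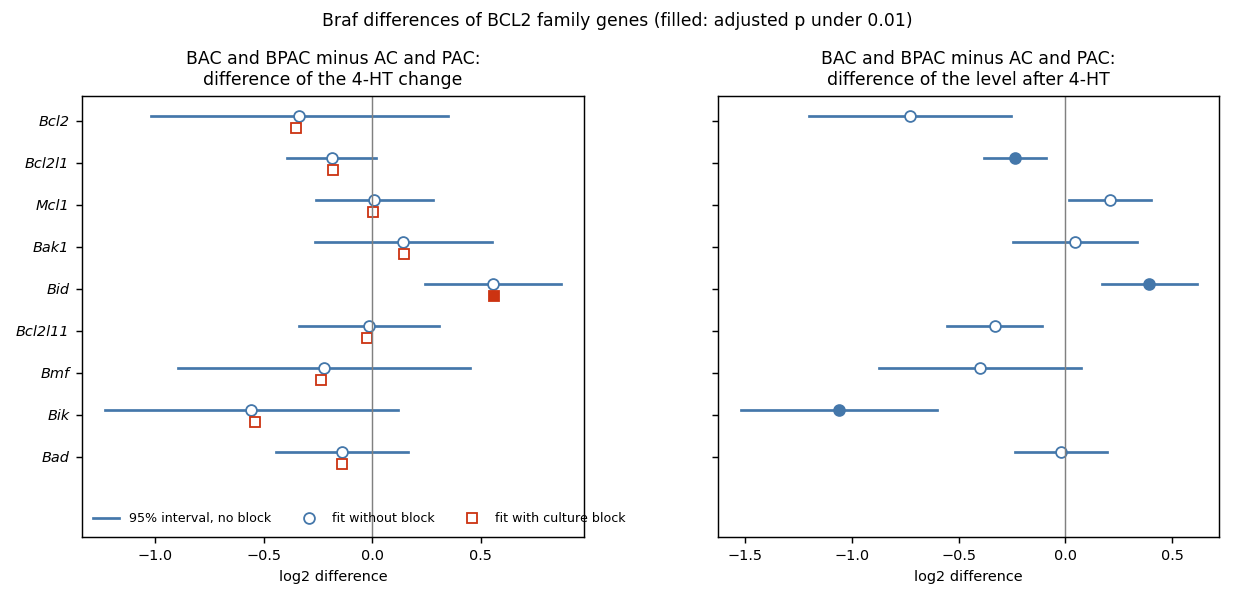
Fitted log2 difference of BAC and BPAC minus AC and PAC for each member. The left panel shows the difference of the 4-HT change and the right panel that of the level after 4-HT, where no block was fitted. Circles with 95% intervals are from the fit without a block, squares are from the fit with the culture block, and filled symbols have an adjusted p under 0.01. In the left panel only the blocked Bid value of 0.56 is filled.

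The same comparison of levels after 4-HT, rather than of changes, gave 3 called members, against 30.2% of all genes. Bik was lower with the Braf allele by 1.06 log2 (SE 0.22, adjusted p = 0.000513 in edgeR), with 1.37 to 3.66 CPM in BAC and BPAC and 3.18 to 5.88 CPM in AC and PAC. The Bik groups overlapped by 2 samples. Bid was higher by 0.39 (SE 0.11, adjusted p = 0.00485), at 29.5 to 40.7 CPM against 26.0 to 32.5. Bcl2l13, which overlaps Bid on the opposite strand, was higher as well (0.33, adjusted p = 0.00147), and the part of shared reads was not tested. Bcl2l1 was lower by 0.24 (SE 0.07, adjusted p = 0.00843), at 83.8 to 102 CPM against 97.0 to 127. Bid and Bcl2l1 overlapped between the groups as well. The Bik call held in 31 of 33 alternatives and was lost without duplicate 1 of AC donor Col288 (-0.88, adjusted p = 0.0112) and in duplicate 2 alone (-1.05, 0.0353). The Bid call held in 23 of 33 and was lost without either culture of Col288 (0.38 and 0.40, adjusted p = 0.0302 and 0.0227), without duplicate 1 of Col286 (0.38, 0.0117) and without duplicate 1 of Col312 (0.37, 0.0121). Bid was lost too without donor Col290, Col286 or Col312 (0.36, 0.38 and 0.37, adjusted p = 0.018, 0.0194 and 0.0197), in duplicate 2 alone (0.33, 0.0357) and with library size alone (0.37, 0.0112). The Bcl2l1 call held in 13 of 33, and without duplicate 2 of Col288 the difference was -0.16 (adjusted p = 0.144). It was also lost without any 1 of 9 other cultures, at -0.22 to -0.25, without both PAC cultures of duplicate 1 (-0.25, adjusted p = 0.0159), in duplicate 1 alone (-0.098, 0.268) and with donor counts summed (-0.20, 0.0151).

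Bcl2 (-0.73, SE 0.23, adjusted p = 0.0129) and Bcl2l11 (-0.33, SE 0.11, 0.016) had lower 4-HT levels with the Braf allele that missed the threshold, and Mcl1 (0.21, SE 0.09, 0.072) a higher one. Bcl2 was at 10.8 to 20.5 CPM in BAC and BPAC and at 17.9 to 39.4 in AC and PAC, and Bcl2l11 at 13.9 to 19.0 CPM against 17.8 to 23.0. Without both PAC cultures of duplicate 1, Bcl2 was called (-0.88, adjusted p = 0.00467).

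With EtOH, where the Braf allele is not yet recombined, 0.0296% of all genes were called between the same genotypes and none of the 9 members, of which 3 had an unadjusted p under 0.05. Bcl2l11 had a difference in the same direction there (-0.32, SE 0.11, adjusted p = 0.157), as did Bik (-0.50, SE 0.23, 0.272), Bcl2 (-0.39, SE 0.23, 0.402) and Mcl1 (0.20, SE 0.09, 0.275). For Bcl2l11 and Mcl1 the difference of the level was thus of nearly the same size before and after 4-HT. Bid had -0.16 (SE 0.11, 0.445) with EtOH, opposite in sign to its 4-HT difference.

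No member was called for the Trp53 allele. For the difference of the 4-HT change between PAC with BPAC and AC with BAC, 0.0148% of all genes were called both without and with the block, and no member had an unadjusted p under 0.05. The differences ran from -0.05 (Bcl2l1) to 0.31 (Bik, 95% interval -0.37 to 0.98), with 0.12 for Bcl2l11 (-0.20 to 0.45) and -0.01 for Bid (-0.32 to 0.30), and the signs of Bid, Bmf, Mcl1, Bcl2l1, Bcl2 and Bak1 depended on the setting. With EtOH, 0.0592% of all genes were called for this allele and no member, in a comparison added after the data were seen. Trp53 itself was called, 0.98 log2 lower with the allele (SE 0.08, adjusted p = 5.79e-08 in edgeR).

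Other genes of the family or linked to it were followed for context, from a list of 16 of which 11 were counted. In BAC and BPAC, Bax, the other main effector, and Bnip2 rose, whereas Bcl2l2 (a guardian), Pmaip1 (the BH3-only gene of NOXA) and Bcl2l14 fell, 2 higher and 3 lower of 11 in each, near the shares over all genes (20.3% and 21.5% in BAC, 22% and 23% in BPAC). In AC and PAC none of the 11 was called without the block. With it, Bok, a further effector relative, was called higher in all 4 genotypes (0.51, 0.68, 0.72 and 0.64 log2 for AC, PAC, BAC and BPAC, with adjusted p of 0.0018, 4.89e-06, 3.46e-07 and 9.86e-07). The block also called Bcl2l2 in AC and PAC, and in PAC Bax, Pmaip1 and Bnip3l (-0.38, adjusted p = 0.00985). Bax was at 138 to 146 CPM with EtOH and 189 to 221 with 4-HT in BAC (0.54 log2, SE 0.16, adjusted p = 0.00667), and at 70.6 to 160 and 160 to 235 in BPAC (0.66, SE 0.16, 0.00115). In PAC it moved by a like amount (0.54, SE 0.16, adjusted p = 0.0107, with the block 0.000946), and the Braf difference of its change was 0.18 (SE 0.18, 0.546). Thus, the fitted changes of Bax and Bak1 had opposite signs in each genotype, although in AC that of Bax was 0.30 (SE 0.23, adjusted p = 0.399 in edgeR).

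Pmaip1 went from 37.0 to 48.9 CPM with EtOH to 18.2 to 24.9 with 4-HT in BAC (-0.83, SE 0.22, adjusted p = 0.0024), and fell by 0.91 in BPAC (SE 0.22, 0.000902). In AC and PAC its change was -0.70 (SE 0.31, adjusted p = 0.116) and -0.65 (SE 0.22, 0.0206), with 0.0183 and 0.00194 under the block. Bcl2l2 fell by 1.01 in BAC and by 0.83 in BPAC (adjusted p = 0.000188 and 0.00112), and its change was -0.69 in AC and -0.47 in PAC (0.0912 and 0.066, with the block 0.00498 and 0.00399). Bcl2l14 fell by 0.61 and by 0.48 (0.000491 and 0.00411), and Bnip2 rose by 0.60 and 0.53 (0.000388 and 0.00103). None of the 11 was called for the Braf difference of the change, and with the block Bcl2l14 was (-0.46, adjusted p = 0.00314). For the level after 4-HT, Bnip3, a mitophagy receptor, was higher with the Braf allele by 2.22 log2 (SE 0.56, adjusted p = 0.00256), at 55.7 to 218 CPM against 4.82 to 37.5. With EtOH, Bnip3 was already at 29.8 to 150 CPM against 9.38 to 119. Bnip3l (0.42) and Bcl2l13 (0.33) were also higher, and Bcl2l2 (-0.61) and Bcl2l14 (-0.45) lower. The list had a median change of 0.16 in BAC and 0.18 in BPAC, beside -0.04 over all genes in both.

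**Figure D5:**
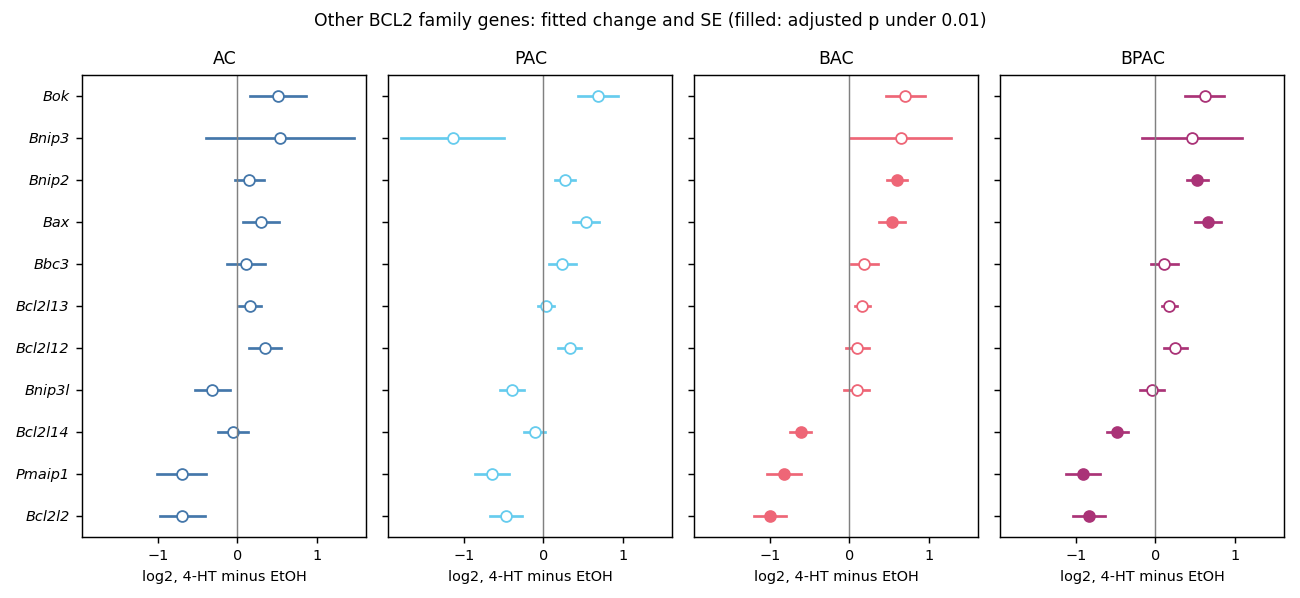
Fitted log2 change from EtOH to 4-HT of the 11 other BCL2 family or linked genes counted, with bars of 1 SE. Each genotype has 1 panel on a common axis. Filled symbols have an adjusted p under 0.01. In BAC and BPAC the filled genes are Bax and Bnip2 to the right of 0 and Bcl2l2, Pmaip1 and Bcl2l14 to the left.

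Downstream of the membrane, 17 genes of the apoptosome, the caspases and mitochondrial release were counted. The voltage-dependent anion channel gene Vdac3 fell in all 4 genotypes (log2 changes of -0.53, -0.47, -0.60 and -0.49 for AC, PAC, BAC and BPAC in edgeR), and Cycs, which encodes cytochrome c, in PAC, BAC and BPAC. The counts for AC were 0 higher and 2 lower of 17, for PAC 0 and 5, and for both BAC and BPAC 2 and 4, where Casp2 and Dffb were the higher ones. Over all genes the shares were 3% and 4.25% for AC, 11.2% and 12.2% for PAC, 20.3% and 21.5% for BAC, and 22% and 23% for BPAC. With the block, Diablo (0.24 and 0.25, adjusted p = 0.00307 and 0.00186) and Htra2 (0.35 in each, 0.000485 and 0.000505) were called higher in BAC and BPAC as well. The blocked counts were 4 higher and 4 lower of 17 in each, beside 51.9% and 54.4% of all genes in either direction. Cycs was also called lower in AC (-0.52, adjusted p = 0.00841) and Dffb was called for the Braf difference of the change (0.53, 0.00804).

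Of 13 genes of the inhibitor of apoptosis proteins and the death receptor pathway, 0 were higher and 1 lower for AC, 1 and 4 for PAC, 1 and 3 for BAC, and 1 and 4 for BPAC. Over all genes the shares higher and lower were 3% and 4.25% for AC, 11.2% and 12.2% for PAC, 20.3% and 21.5% for BAC, and 22% and 23% for BPAC. The counts lower in BAC and BPAC are near these shares. The count lower in PAC is above its share, and those higher in BAC and BPAC are below theirs. With the block the counts were 0 and 5, 2 and 5, 2 and 4, and 2 and 6, beside 16.4%, 34.9%, 51.9% and 54.4% of all genes in either direction. The second gene called higher was Traf2, an adaptor (0.37, 0.33 and 0.33 for PAC, BAC and BPAC, adjusted p = 0.000802, 0.00108 and 0.000987). Birc5 (survivin), which also acts in cell division, was the gene that rose without the block, by 0.47 in PAC, 0.70 in BAC and 0.79 in BPAC. Fas, a death receptor whose signal is passed on through Bid, had log2 changes of -1.47, -1.99 and -2.30 in PAC, BAC and BPAC, all called, and in AC -1.23 (SE 0.32, adjusted p = 0.0105, with the block -1.20 and 0.00334). Its Braf difference of the change was -0.80 (SE 0.25, adjusted p = 0.0348, with the block -0.85 and 0.00754). Cflar, which blocks caspase-8 at the receptor, fell by 0.58, 0.55 and 0.61 in these 3 genotypes. Tradd, an adaptor of the receptor complex, fell by 0.60, by 0.74 and by 0.87. With the block, Cflar (-0.40, adjusted p = 0.00518) and Tradd (-0.62, 0.00591) were called in AC too. Xiap, which encodes a caspase inhibitor, was called lower with the block in all 4 genotypes (-0.72, -0.77, -0.42 and -0.49 for AC, PAC, BAC and BPAC, with adjusted p of 0.0026, 3.65e-05, 0.00266 and 0.000858) and in none without it.

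Among 15 counted regulators of the members, 3 were higher and 1 lower in AC and in PAC, 3 and 4 in BAC, and 4 and 4 in BPAC. Over all genes the shares were 3% and 4.25% for AC, 11.2% and 12.2% for PAC, 20.3% and 21.5% for BAC, and 22% and 23% for BPAC. The BAC and BPAC counts are near these shares, whereas the count higher in AC, and less so in PAC, is above its share. With the block the counts were 3 and 1, 3 and 3, 4 and 4, and 5 and 5, beside 16.4%, 34.9%, 51.9% and 54.4% of all genes in either direction. Trp53, E2f1 and Myc rose and Foxo3 fell in each genotype. Foxo3, whose product activates Bcl2l11 in many cells, was at -0.98, -0.77, -1.02 and -1.25 log2 in AC, PAC, BAC and BPAC, opposite in sign to the Bcl2l11 change. Jun was the 1 gene of the list with a called Braf difference (-1.04, SE 0.19, adjusted p = 0.000592 in edgeR). As the readout of the Braf allele itself, 5 of 12 ERK output genes had a called Braf difference (6.61% over all genes), all higher: Spry4 (1.34), Etv4 (1.12), Dusp6 (0.85), Fosl1 (0.81) and Spred1 (0.72). Egr1, named after its values were seen, went the other way (-0.85, SE 0.30, adjusted p = 0.0569, with the block 0.000192). In the same samples the Bcl2l11 difference was -0.01.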

How the data were processed

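Bulk RNA from 28 organoid samples was sequenced by the authors. The values deposited by the authors are unnormalized read counts for 13519 genes, of which 13479 matched a GENCODE symbol on GRCm38. The submitters' processing notes name Trimmomatic 0.39 and STAR 2.5.2b, while the counting program, its annotation and its strandedness are not given in the sources used here. Totals were 20577276 to 40068718 counts per sample.

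After TMM scaling, edgeR 4.0.16 under R 4.3.3 was used (quasi-likelihood test over 8 genotype and treatment groups with 1 shared spread, Benjamini-Hochberg adjustment over all genes, threshold 0.01). Levels are CPM, and changes per culture use a prior count of 2. Standard errors were derived from the log2 difference and the F statistic. The methods name limma, which was run as limma-voom (limma 3.58.1) beside DESeq2 1.42.0, since the deposited values are counts. EtOH and 4-HT samples were paired where the labels give the same donor and duplicate number. Deviations from the group means correlated at 0.245 to 0.532 within 12 such pairs (AC, with 2 samples a group, was left out), against a mean of -0.059 across the cultures of 1 donor, and the paired fit with the culture as a replicate block is therefore printed beside the members' calls and the gene list counts that it changes. For 1 sample whose title has no duplicate number, the number was taken as duplicate 1. Donors were compared by exact permutation (scipy, the smaller one-sided p doubled). The 2 cultures of a donor share an animal, so p-values of the fits cover the spread between cultures more than between mice.

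The members and gene lists were chosen with earlier results of these data known. All members are named, and of each list at most 6 genes past the threshold. For 1 gene of the lists, the values are not reported here. The fits were tested on simulated data. Promoters came from RefSeq (GRCm38.p6). Figures were drawn with Python 3.11.15.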

Additional observations from a re-analysis of the deposited data

Results flagged for a closer look

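In 81 groups of 4 samples (levels and changes of the 9 members in PAC, BAC and BPAC), 4 values lay apart from the other 3 of their group by Dixon's test, with a gap of more than 0.829 of the range. Chance alone flags about 1 in 20 groups, which is about as many as were found. The log2 change of Bcl2 in Col287 duplicate 1 (BPAC) was 0.93, against 0.04 to 0.10 in the other 3 cultures. After 4-HT, Mcl1 in Col287 duplicate 1 was at 348.6 CPM, against 301 to 309 in the rest of BPAC. With EtOH, Bmf in the same culture was at 1.98 CPM, against 3.40 to 3.52. Bid after 4-HT in Col286 duplicate 1 (BAC) was at 40.67 CPM, against 38.1 to 38.4. Of these 4 values, 3 come from Col287 duplicate 1.

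The 4-HT change of Bid was 0.56 log2 larger where the Braf allele was present in the fit with the culture as a block (adjusted p = 0.00131 in edgeR). Without the block it was not called (adjusted p = 0.0148), and it was past the threshold in 7 of 36 alternatives. The culture values had all 8 cultures of BAC and BPAC at 0.443 or more and all 6 of AC and PAC at 0.439 or less, which nearly touch. These 14 cultures come from 7 donors, and those of AC and PAC include the PAC cultures of duplicate 1. Donor means of the change did not overlap for 35.3% of all genes, Bid among them. The level of dividing-cell markers differed with the allele after 4-HT too (543 to 605 CPM in AC and PAC, 730 to 794 CPM in BAC and BPAC), and its part in the Bid difference was not tested.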

How the results depend on the processing

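Bid was called higher in BAC and BPAC in all alternatives but 1, and no called member changed direction in any alternative. The counts of called members moved by over 1.5 times as follows, and BPAC was at 2 to 4 in the alternatives not named. With the culture as a replicate block they were 5 in PAC, 5 in BAC, 6 in BPAC and 1 for the Braf difference of the change, against 0, 2, 3 and 0 without it, and 0 in AC and for the Trp53 difference in both. With that block and without the PAC cultures of duplicate 1 (added after seeing the data) they were 5 in BAC, 6 in BPAC and 1 for the Braf difference. Without those cultures and with no block BAC had 1. With donors as the block PAC had 1. DESeq2 called 1 in AC, 1 in PAC and 1 for the Braf difference. Limma-voom called 1 in BAC and 5 for the Braf difference of the 4-HT level (3 in the main test). DESeq2's size factors in edgeR gave 1 in BAC, library size alone 3 in PAC and 1 in BAC, donor counts summed 1 for the Braf difference, and each genotype fitted alone 1 in BPAC. Duplicate 2 alone gave 1 in BAC, 1 in BPAC and 0 for the 4-HT level. The duplicate number as a covariate gave 2 in PAC, 4 in BAC, 5 in BPAC, 1 for the Braf difference and 5 for the 4-HT level. A threshold of 0.05 gave 1 in AC, 3 in PAC, 4 in BAC, 1 for the Braf difference and 5 for the level, and one of 0.001 gave 1 in BAC, 1 in BPAC and 1 for the level. With single cultures or donors left out in turn, the counts ran from 0 to 1 in PAC, 1 to 2 in BAC, 1 to 3 in BPAC, 0 to 1 for the Braf difference and 1 to 3 for the level. The cause of these shifts was not tested.

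The donor-level Braf difference of Bcl2l11 (-0.06) became 0.0032 without both PAC cultures of duplicate 1, and ran from -0.15 to 0.041 with single cultures left out. That of Bid ran from 0.46 to 0.62 and that of Bik from -0.68 to -0.41. Over all genes, called genes ranged from 9 to 2280 in AC (main 980), 7 to 4960 in PAC (3166), 2698 to 7408 in BAC (5660), 2997 to 7683 in BPAC (6089), 32 to 1989 for the Braf difference (893), 1145 to 5902 for the 4-HT level (4084), 0 to 242 for the EtOH level (4) and 0 to 2 for the Trp53 difference (2). With library size alone the called genes were 1511 higher and 302 lower in AC (406 and 574 with TMM), 3388 and 737 in PAC (1511 and 1655), 3881 and 2066 in BAC (2751 and 2909), and 4331 and 2038 in BPAC (2979 and 3110). Prior counts of 0.5 and 5 moved no mean change by more than its SD. The longest transcript in place of all exons moved the level per kilobase of 4 members by more than its SD. AC rests on 1 donor and Bmf and Bik on 29 to 187 counts per sample. Whether depth or the spread between cultures sets the error of these 2 genes was not tested.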
